A study of Mus musculus with 4 samples.

Results

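The genes described here are the Zfp genes, a naming series of mouse zinc finger proteins, in V6.5 mouse embryonic stem cells. They were chosen by symbol alone, as every listed feature whose symbol is Zfp followed by a digit, with Zfp42 left out because it is a marker of the naive pluripotent state. This gave 13 genes among 1517 named features. RNA-seq counts were available for 2 libraries of cells transfected with a short hairpin against GFP (shGFP), the control, and for 2 libraries of cells transfected with one against NCAPH2 (shNCAPH2), a subunit of the condensin II complex that organises chromosomes. All cells were at passage 3, had been expanded on irradiated fibroblast feeders that were later taken away, and had been kept in puromycin at 2 µg/mL for 5 days. Whether libraries with the same hairpin stem from separate cultures is not stated, so p-values here reflect only library-to-library spread, which may be technical.

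Zinc finger proteins of the C2H2 class bind DNA through tandem fingers, each a short loop that holds a zinc ion between cysteines and histidines. Many of them also carry a KRAB domain, which recruits the corepressor TRIM28 (KAP1) and, through it, the histone methyltransferase SETDB1 and heterochromatin protein 1. In embryonic stem cells this system is known for silencing endogenous retroviruses, and its genes lie in tandem clusters that arose by duplication.

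The tables set limits on what these counts can show. Counts in named features summed to 507891 and 429907 in shGFP and to 243628 and 272426 in shNCAPH2, and no named feature kept more than 67.8% of its summed shGFP count. How the listed features were chosen is not stated. Since all of them had a lower sum in shNCAPH2, a lower sum in the Zfp genes does not set them apart. The shares kept come from deposited counts without scaling to sequencing depth, which the listed features alone do not give. Fewer reads sequenced and less RNA thus cannot be told apart in these shares. Of 12 embryonic stem cell markers 4 were listed (Nanog, Sox2, Pou5f1 and Esrrb), which kept 62.2%, 61.1%, 35% and 4.17% of their summed shGFP counts (median 48.1%). Nanog had 2114 and 2345 counts under shGFP and Pou5f1 39 and 21, while Esrrb had 11 and 13 under shGFP and 0 and 1 under shNCAPH2. Of 18 markers of feeder fibroblasts 2 were listed, with summed counts of 63 and 66 in shGFP and 32 and 29 in shNCAPH2, nearly all from Igfbp7; Pdgfrb was at 0 in both shNCAPH2 libraries. Their part in the Zfp counts was not tested. Ncaph2 itself was not analysed here, so the knockdown was not checked on its transcript. In bulk RNA, fewer cells that express a gene and less RNA per cell cannot be told apart.

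Few Zfp genes were listed, and most had low counts. GENCODE M21 annotates 393 protein-coding Zfp genes other than Zfp42, of which 13 (3.31%) were listed, beside 1155 of 21951 coding genes of any name (5.26%). The median Zfp gene had 17 counts summed over the shGFP libraries, against 35 for the median named feature, and 7 of the 13 had fewer than 20.

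One gene, Zfp605, carried most of the signal. Zfp605 encodes a KRAB zinc finger protein and lies on chromosome 5 from 110110092 to 110129794 on the plus strand (GRCm38). Its shGFP libraries held 821 and 711 counts and its shNCAPH2 libraries 351 and 469. Both knockdown libraries lay below both controls, as in 88.4% of named features. The counts of Zfp605 were 76.1% of all Zfp counts in shGFP and 78.5% in shNCAPH2. By summed shGFP counts it ranked 99 among the 1517 named features. The CPM level of Zfp605, its count scaled to the library's total in named features, was 1616 and 1654 in shGFP and 1441 and 1722 in shNCAPH2. On that scale the groups overlapped, with the lowest and the highest value both in shNCAPH2.

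Zfp329 and Zfp74, both on chromosome 7, were the next most abundant. Zfp329 (12804977 to 12818858, minus strand) was counted 91 and 107 times in the shGFP libraries and 66 and 44 times in the shNCAPH2 libraries. Zfp74 (29930815 to 29954089, minus strand), a KRAB zinc finger gene, had 52 and 47 against 21 and 25. In deposited counts the groups did not overlap in either gene, as in 88.4% of named features. The shNCAPH2 libraries stood farther apart in Zfp329 than in Zfp74. Scaled to CPM, Zfp329 was at 179 and 249 in shGFP and at 271 and 162 in shNCAPH2, so its groups overlapped. Zfp74 was at 102 and 109 CPM in shGFP and at 86.2 and 91.8 in shNCAPH2. It was lower without overlap, as were 33.9% of named features on that scale. Together with Zfp605 these genes held 90.9% of the Zfp counts of the shGFP libraries.

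A middle tier of 3 genes had 12 to 26 counts in each shGFP library. Zfp740 (chromosome 15, 102203648 to 102215606, plus strand) had counts of 15 and 26 with shGFP and 8 in each shNCAPH2 library. Zfp35 (chromosome 18, 23989632 to 24005376, plus strand) had 15 and 13 against 2 and 8. Zfp91 (chromosome 19, 12763660 to 12796126, minus strand) had 15 and 12 against 8 and 8. ZFP91 is a ubiquitin ligase of the non-canonical NF-kB pathway. In Zfp740 the shGFP libraries were the less even pair, and in Zfp35 the shNCAPH2 libraries were.

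The remaining 7 genes had at most 10 counts in any library. Among them, Zfp143 encodes a transcription factor that binds promoters of small nuclear RNA and protein-coding genes, and it was counted 5 and 7 times in the shGFP and 2 and 1 times in the shNCAPH2 libraries (chromosome 7, 110061702 to 110095392, plus strand). Zfp330, which encodes a nucleolar protein, had 8 in each shGFP library and 3 in each shNCAPH2 library (chromosome 8, 82763621 to 82774160, minus strand). Zfp414 had 7 and 10 counts against 5 and 1 (chromosome 17, 33629090 to 33631779, plus strand). These genes sit near the limit of what a single library can show. Zfp629 had 4 and 10 counts against 3 and 0 (chromosome 7, 127607031 to 127615797, minus strand), and its control libraries differed more from each other than those of Zfp330 or Zfp143. Zfp367 had 8 and 4 against 1 and 3 (chromosome 13, 64133022 to 64153202, minus strand). Zfp839 had 6 and 3 against 1 and 2 (chromosome 12, 110850279 to 110869998, plus strand), and Zfp507, the lowest, had 4 and 3 against 1 and 0 (chromosome 7, 35772343 to 35802989, minus strand). A count of 0, seen in 1 shNCAPH2 library each for Zfp629 and Zfp507, allows up to 3 counts, and no Zfp gene was at 0 in both.

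**Figure D1:**
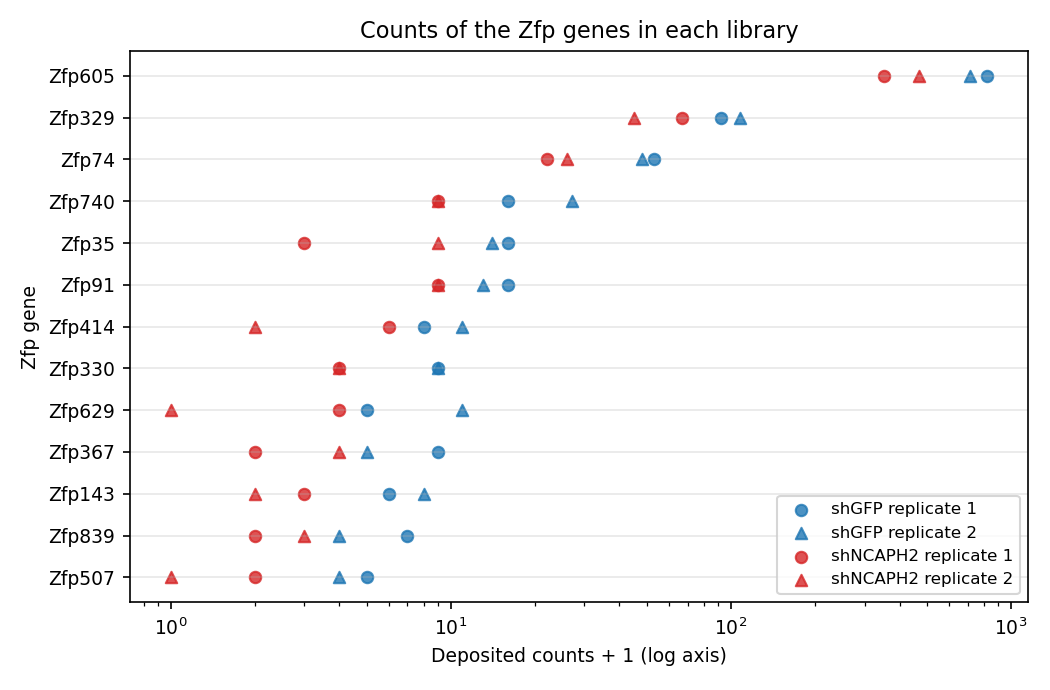
Deposited counts plus 1 (log axis) of each of the 13 Zfp genes, with shGFP libraries in blue and shNCAPH2 libraries in red, circles for replicate 1 and triangles for replicate 2. Zfp605 reaches 821 counts while 7 genes stay at 10 or fewer, and the red points lie left of the blue ones in every row.

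The order of levels was similar when gene length was taken into account. Per kilobase of annotated exon, the mean shGFP level was 219.0 counts for Zfp605, 14.7 for Zfp329 and 8.80 for Zfp74, the only Zfp genes above the 6.26 counts of the median feature with an annotated exon length. The other 10 ranged from 0.43 in Zfp507 to 4.61 in Zfp35. Zfp35 thus stood above Zfp740 (4.03) per length, though Zfp740 had more counts. With 15 and 26 counts in its control libraries, Zfp740 varied by more than this gap, so the order of these neighbours is within their spread.

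In all 13 genes the shNCAPH2 counts were each lower than either shGFP count, as in 88.4% of named features. The Zfp genes kept between 14.3% (Zfp507) and 59.3% (Zfp91) of their summed shGFP counts, with a median of 35.7% beside 46.7% for all named features. Zfp91, Zfp329 (55.6%) and Zfp605 (53.5%) kept more than the median feature, and the other 10 kept less. Exact 95% intervals, which cover counting error only, were 49.1% to 58.3% for Zfp605, 43.6% to 70.5% for Zfp329 and 32.0% to 66.6% for Zfp74. They widened to 29.8% to 114.0% for Zfp91 and 0.32% to 111.2% for Zfp507. The interval of Zfp605 lay above the median of all features, and the intervals of the other 12 held it. Features with 200 or more summed shGFP counts, the class of Zfp605, had a median of 58.9%, and its interval lay below that. Libraries of a group differed by more than counting error (chi-square per degree of freedom of 13.2 in shGFP and 5.79 in shNCAPH2). The intervals leave that spread out, so they settle neither placement of Zfp605. Summed over the 13 genes, 2012 counts in shGFP stood against 1044 in shNCAPH2, or 51.9% kept, beside 55.0% for all named features. Without Zfp605 the Zfp sum kept 46.7%.

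**Figure D2:**
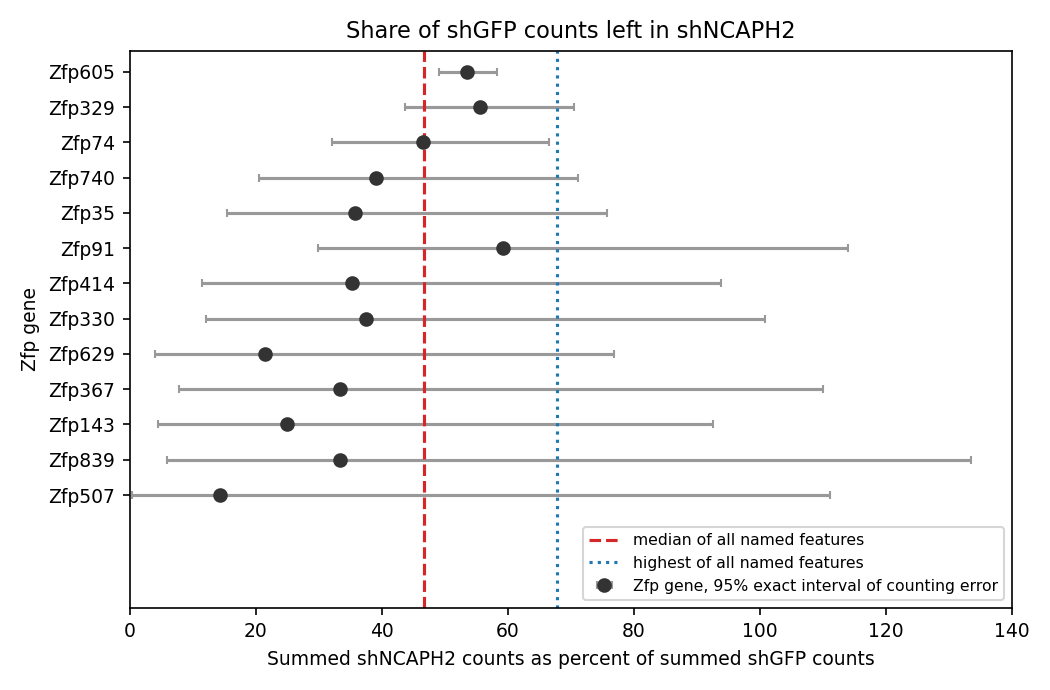
Summed shNCAPH2 counts as a percent of summed shGFP counts for each Zfp gene, with exact 95% intervals of counting error as bars. The dashed line is the median of all named features (46.7%) and the dotted line the highest of them (67.8%). The bar of Zfp605 lies right of the dashed line and the other 12 bars cross it. The dashed line covers all count levels, and features with 200 or more summed shGFP counts had a median of 58.9%.

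The low shares belonged to the Zfp genes with few counts, and the tables show the same slope over all features. The 7 Zfp genes under 20 summed shGFP counts kept 14.3% to 37.5% (median 33.3%), and the 6 above kept 35.7% to 59.3% (median 49.99%). Among all named features the median share kept was 11.1% under 10 counts, 30% from 10 to under 20, 50% from 20 to under 50, 56.1% from 50 to under 200 and 58.9% from 200 on. The ceiling moved as well: no feature under 10 counts kept more than 33.3%, and none from 10 to under 20 more than 57.9%. Zfp839, with 9 counts in shGFP and 3 in shNCAPH2, sat at the first of these limits. Over the 13 Zfp genes the share kept and the summed shGFP count, which is also its denominator, had a Spearman rho of 0.84 (Pearson r of 0.72 with the count on a log2 scale), and over the 1517 named features a rho of 0.70. All points come from the same 4 libraries. In the under-20 class, which held 483 features with a median of 23.1%, the Zfp median of 33.3% was the higher one, and from 20 counts on Zfp91 lay above the median of its class and the other 5 Zfp genes below theirs.

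**Figure D3:**
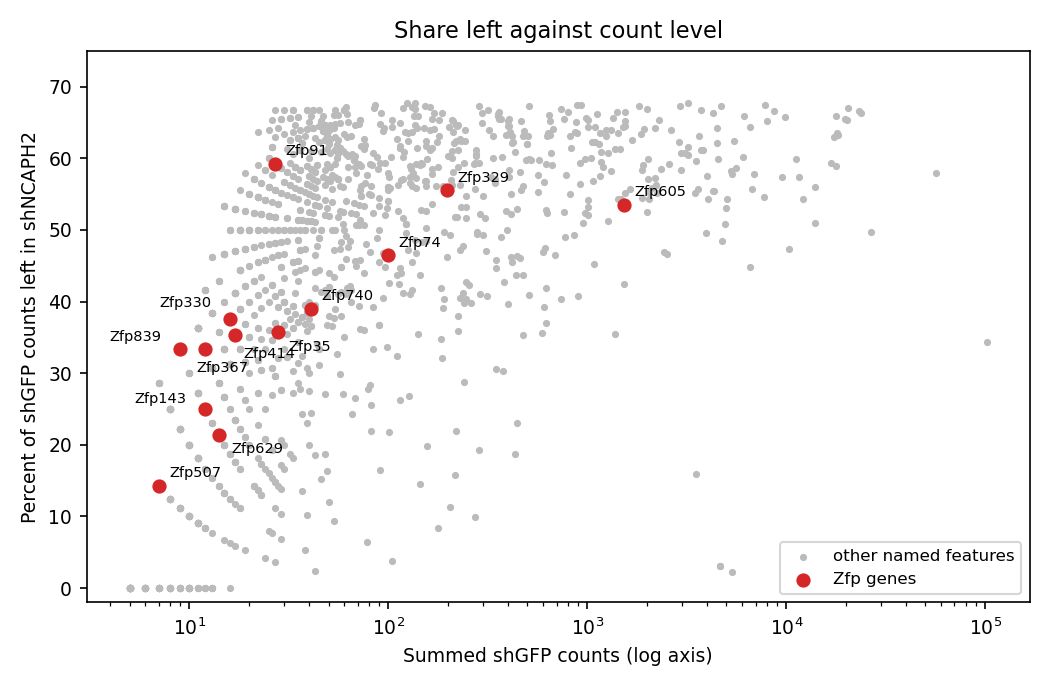
Percent of shGFP counts left in shNCAPH2 against summed shGFP counts (log axis), with the 13 Zfp genes in red and all other named features in grey. The upper edge of the grey points falls at low counts, where no feature under 10 counts lies above 33.3%, and the low-count Zfp genes lie within that edge.

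No tested Zfp gene passed a test of whether its change differed from that of the typical tested feature. A total of 6 Zfp genes passed the filter on low counts (46.2%, beside 59.1% of named features). Of these, 0 passed in edgeR at an adjusted or at an unadjusted p under 0.05. DESeq2, which fitted all 13, likewise gave 0 at either threshold. Of 1517 fitted features DESeq2 called 6 lower and 0 higher at the adjusted threshold. At the unadjusted one it had 37 lower and 6 higher. In edgeR, over all 896 tested features 1% were called lower and 0% higher, and 6.36% were lower at the unadjusted threshold (quasi-likelihood F-test, p-values adjusted by Benjamini-Hochberg). Fold changes are relative, since libraries were scaled by TMM over features that are all lower in shNCAPH2, and 0 stands for about the typical drop in counts. The relative log2 fold change was -0.09 ± 0.19 (SE) for Zfp605, from 766.0 ± 77.8 to 410.0 ± 83.4 counts (SD, n = 2 each; edgeR adjusted p = 0.999). For Zfp329 it was -0.03 ± 0.31, from 99.0 ± 11.3 to 55.0 ± 15.6 counts, and for Zfp74 it was -0.28 ± 0.30, from 49.5 ± 3.54 to 23.0 ± 2.83. Zfp740 and Zfp35 lay lower, at -0.54 ± 0.50 and -0.66 ± 0.58, and Zfp91 was the 1 gene above 0, at 0.07 ± 0.45. The edgeR adjusted p was 0.999 for each of these as well. The median of the 6 was -0.18, beside -0.004 for all tested features. The sign of Zfp329 and Zfp605 turned under other scalings or filters, and the values of Zfp35 and Zfp740 moved with single libraries. Zfp35 was at -0.01 without shNCAPH2 replicate 1 and at -1.81 without shNCAPH2 replicate 2. Zfp740 was at -1.01 without shGFP replicate 1, and it did not pass the filter without shGFP replicate 2.

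When all libraries were given the same size, a choice made after the data were seen, 2 Zfp genes passed as lower. These were Zfp605 at -0.90 ± 0.21 (edgeR adjusted p = 0.038) and Zfp74 at -1.10 ± 0.31 (edgeR adjusted p = 0.046). Under that scaling 30.6% of tested features were called lower, 0% higher, and the median of all tested features was -0.84, so the calls do not set the Zfp genes apart. Zfp329 (-0.85 ± 0.30), Zfp740 (-1.34 ± 0.44), Zfp35 (-1.46 ± 0.55) and Zfp91 (-0.75 ± 0.35) did not pass (edgeR adjusted p = 0.064 to 0.13). With no filter on low counts all 13 could be fitted and 0 passed, beside 1.38% of features called lower. The low-count genes then ranged from -1.702 ± 1.27 in Zfp507, -1.24 ± 0.92 in Zfp629 and -1.02 ± 0.89 in Zfp143 to -0.46 ± 0.72 in Zfp330, with standard errors of 0.72 or more. Divided by scaled library sizes, 5 genes kept both shNCAPH2 values below both shGFP values (Zfp143, Zfp330, Zfp35, Zfp507 and Zfp74), or 5 of 13 beside 35% of named features. The same 5 did so when counts were scaled to CPM, beside 33.9%.

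**Figure D4:**
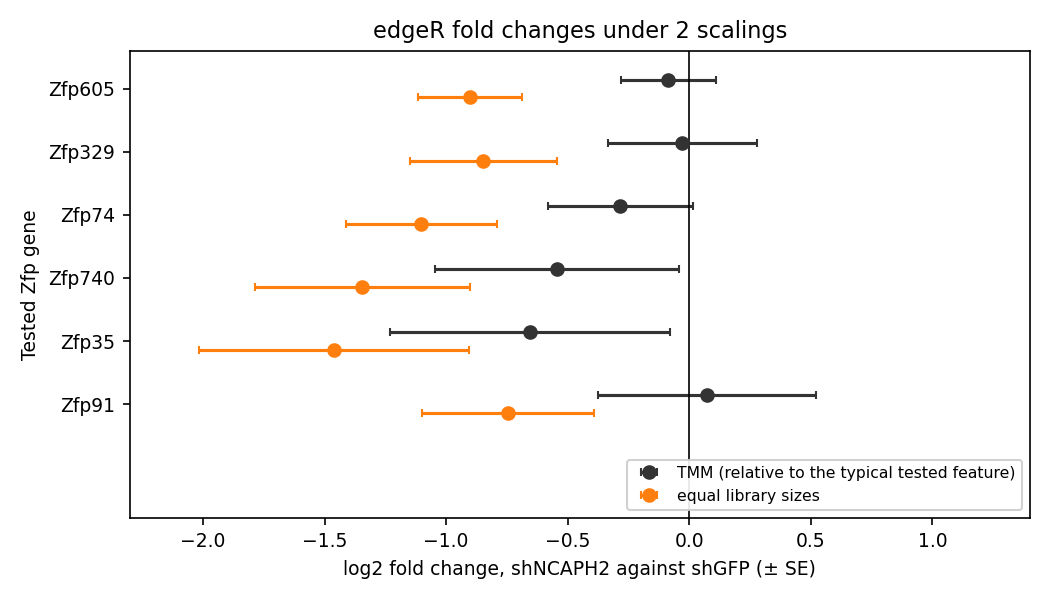
edgeR log2 fold changes of shNCAPH2 against shGFP (points, bars ± SE) for the 6 tested Zfp genes, with TMM scaling in black and equal library sizes in orange. The black points lie between -0.66 and 0.07, and the orange points between -1.46 and -0.75.

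The listed Zfp genes formed no chromosomal cluster. They lay on 9 chromosomes, 8 of which held 1 gene each. Chromosome 7 held 5 of them (38.5%), namely Zfp329, Zfp74, Zfp507, Zfp143 and Zfp629 in order of position. It also holds 92 of the 393 annotated Zfp genes (23.4%), and 94 of the named features (6.20%). Neighbouring starts, here the lower coordinate of each gene on either strand, were 17.1, 5.84, 74.3 and 17.5 Mb apart along that order. No pair thus came within 1000000 bases.

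Some Zfp genes nevertheless came from annotated clusters of which they were the single listed gene. With gaps of up to 500000 bases between starts, the annotation holds 33 clusters of at least 3 Zfp genes, and 5 of these had a listed gene. Zfp74 was listed from a cluster of 15 on chromosome 7, Zfp414 from a cluster of 13 on chromosome 17, and Zfp629 from a cluster of 10 on chromosome 7. Zfp329 was listed from a cluster of 7 and Zfp35 from a cluster of 3. Of 238 annotated Zfp genes inside such clusters 5 were listed (2.10%), and of 155 outside them 8 were (5.16%), a difference that was not tested. Zfp605, the gene with the highest counts, had 1 other annotated Zfp gene within 500000 bases, and that gene was not listed. The lower coordinate of Zfp329 lay 219175 bases from that of Trim28, the gene of the KRAB corepressor. Between them lay the lower coordinates of 10 coding genes.

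Overlapping genes and near copies may bear on these counts, which was not tested. Exons of 6 Zfp genes (46.2%) overlapped an exon on the opposite strand, beside 40.2% of named features, and no source used here states whether counting took account of strand. The shared stretch was 132 of 3497 exon bases in Zfp605 (the pseudogene Gm15484), 235 in Zfp74 (C230062I16Rik), 278 in Zfp740 (Csad) and 109 in Zfp143 (AA474408). It was 603 in Zfp367 (Gm47513), and in Zfp507 it was 1914 with Gm26790 and 412 with E130304I02Rik. On the same strand Zfp91 shared 847 exon bases with Cntf, and Zfp414 shared 705 with Gm20507. None of these partners was listed. Counts of the 6 genes with an opposite-strand partner, and of Zfp91 and Zfp414 with a same-strand one, are therefore uncertain. Reads from fingers that resemble those of paralogs may also have been shared among Zfp genes.

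The promoters of Zfp605, Zfp74 and Zfp91 are shown because they share a short sequence. Promoter sequences of 12 of the 13 genes were matched in RefSeq (GRCm38.p6), each from 250 bases before to 50 bases after the start nearest the listed 5′ end (525 bases from it in Zfp629, 352 in Zfp740 and at most 24 in the others); Zfp35 was not matched. The motif searched, on both strands, was ACTAC followed by any 3 bases and TCCCAG. It follows the element bound by ZFP143 in other promoters and was chosen after the sequences had been seen. Capitals mark its match, written on the strand of the gene:
Zfp605, chr5:110109842-110110141, plus strand: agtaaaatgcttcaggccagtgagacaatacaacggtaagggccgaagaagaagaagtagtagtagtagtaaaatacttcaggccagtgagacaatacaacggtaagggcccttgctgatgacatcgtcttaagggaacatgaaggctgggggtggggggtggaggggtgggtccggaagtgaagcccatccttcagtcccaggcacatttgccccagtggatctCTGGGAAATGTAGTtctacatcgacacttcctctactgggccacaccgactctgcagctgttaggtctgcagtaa
Zfp74, chr7:29954016-29954315, minus strand: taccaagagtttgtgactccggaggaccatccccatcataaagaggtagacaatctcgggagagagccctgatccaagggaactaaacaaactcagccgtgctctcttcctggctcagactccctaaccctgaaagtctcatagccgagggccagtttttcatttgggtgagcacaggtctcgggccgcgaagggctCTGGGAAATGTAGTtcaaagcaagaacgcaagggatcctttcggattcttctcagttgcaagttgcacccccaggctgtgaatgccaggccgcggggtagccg
Zfp91, chr19:12796074-12796373, minus strand: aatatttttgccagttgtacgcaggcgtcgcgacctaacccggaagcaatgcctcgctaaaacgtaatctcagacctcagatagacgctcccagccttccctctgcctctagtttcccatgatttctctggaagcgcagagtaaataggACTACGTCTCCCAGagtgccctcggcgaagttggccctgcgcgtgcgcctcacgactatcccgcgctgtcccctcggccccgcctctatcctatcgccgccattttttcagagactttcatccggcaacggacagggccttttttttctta

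In Zfp605 and Zfp74 the match lies on the opposite strand, centred 18 and 46 bases before the start, and reads CTGGGAAATGTAGT in both. The longest run of bases shared by these promoters was 18 bases, ctctgggaaatgtagttc, and it contains that match. In Zfp91 it lies on the strand of the gene, centred 94 bases before the start, and reads ACTACGTCTCCCAG. A match was thus present in 3 of 12 Zfp promoters (25%), beside 9.67% of the 393 promoters of annotated Zfp genes in the RefSeq table, 2.62% of 1185 promoters of named features and 1.21% of all 32851. The motif was chosen after these 12 promoters had been seen, so the 25% is no test of enrichment. The 3 genes kept 53.5%, 46.5% and 59.3% of their shGFP counts, and a link to the motif was not tested. Promoters of the other 9, Zfp329 and Zfp143 included, held no such letters in this window.

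In other features the Zfp promoters varied widely. CpG dinucleotides numbered from 7 in Zfp605 to 54 in Zfp740, with a median of 15.5, beside 14 for annotated Zfp genes, 22 for named features and 7 for all promoters. Zfp605, with the most counts, thus had the fewest. The GC-box letters GGGCGG occurred in 6 of 12 (50%, beside 61.2% of promoters of named features and 35.7% of all promoters), CCAAT in 3 (25%, beside 34.7% and 37.4%) and TATAAA in 2, Zfp329 and Zfp414 (16.7%, beside 5.65% and 13.6%), each searched on both strands.

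Among genes of the KRAB corepressor machinery, 6 of 32 were listed (18.8%), beside 5.26% of coding genes, a difference that was not tested. Of these 6, 5 were tested and 0 passed in either direction, beside 1% of tested features called lower and 0% higher. Trim28, which encodes the corepressor that KRAB domains bind, was counted 32 and 16 times with shGFP and 12 and 18 times with shNCAPH2, so that its groups overlapped, with 62.5% kept (38.2% to 100.7%). Chd4, the remodelling subunit of the NuRD complex, had 55 and 46 against 31 and 12 counts (relative log2 fold change -0.39 ± 0.42). Cbx1, which encodes heterochromatin protein 1 beta, had 41 and 32 against 21 and 20 (-0.002 ± 0.31). The listed DNA methyltransferase genes were Dnmt1, the maintenance enzyme, at 42 and 40 against 25 and 20 counts, and Dnmt3b, a de novo enzyme, at 20 and 7 against 2 and 8. The deacetylase gene Hdac2, at 20 and 10 against 6 and 5, was below the filter. The corepressor genes kept a median of 48.7% of their shGFP counts, beside 35.7% for the Zfp genes, but all 6 had more than 20 summed shGFP counts, and the 6 Zfp genes above that level kept a median of 49.99%. The relative log2 fold changes of the 5 tested corepressor genes had a median of -0.04, beside -0.18 for the 6 tested Zfp genes.

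A set of 131 annotated C2H2 genes with other symbols, picked by prefix or name, held 4 listed genes (3.05%). Of all coding genes 5.26% were listed. Among these 4, 3 were tested and 0 passed, beside 1% of tested features called lower and 0% higher. The 4 kept a median of 63.2%. Other C2H2 genes outside this set were also listed, among them Egr1, Mynn, Rest and Sp9, which kept 6.41%, 33.3%, 50% and 56.8%. Zbtb1 was counted 260 and 245 times with shGFP and 147 and 172 times with shNCAPH2, and Ctcf, the gene of the insulator protein, had 24 and 18 against 12 and 15. Prdm9, which marks recombination sites in meiosis, had 8801 and 9430 counts against 6076 and 5460, more than all 13 Zfp genes together in each library. Klf7 had 8 and 7 against 1 and 2. Zfp42, left out of the Zfp genes by rule, had 59 and 35 counts against 19 and 19, a share kept of 40.4%.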

How the data were processed

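The authors deposited 1 table of raw read counts per library (2 shGFP, 2 shNCAPH2), per the file headers with symbol, start, end, strand and, in 3 of the 4, chromosome. Per the labels' protocols, ribosomal RNA was removed and libraries were prepared with a TruSeq RNA kit. Per the submitters' processing notes, mm9, edgeR and TopHat2 2.0.10 were used, in roles not stated; the positions of 11 of the 13 Zfp genes shared a start or end with GENCODE M21 (GRCm38), and all 13 overlapped the gene of that name, so coordinates are named as GRCm38. The 101 rows without a symbol (22.2% to 23.3% of counts) were left out of sizes and tests.

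Counts were tested with edgeR 4.0.16 (quasi-likelihood, TMM, filterByExpr, group alone, Benjamini-Hochberg, threshold 0.05) in R 4.3.3 over all named features. The procedure was tested on simulated data, whose changes went up and down in equal number. That test does not cover features that are all lower in 1 group, as here. SE is the absolute log2 fold change over the square root of F. Shares kept are summed shNCAPH2 over summed shGFP counts, not scaled to library size, with exact (Clopper-Pearson) 95% intervals. Alternatives were RLE, no filter, a stricter filter, a replicate block, each library left out, DESeq2 1.42.0 and, added later, equal library sizes. Libraries of a group differed beyond counting noise (chi-square per degree of freedom of 13.2 and 5.79). The members, lists and tests were chosen with earlier results of these data known. Genes were named by a rule that took the 12 Zfp genes with the highest shGFP mean and the extremes of fold change, which covered 12 of the 13, and every listed pathway gene; Zfp507 was named after its values were seen, as were the motif and its promoters.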

Additional observations from a re-analysis of the deposited data

How the results depend on the processing

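Depth limits most of these values, since 7 of the 13 Zfp genes had fewer than 20 shGFP counts. The count of 0 Zfp genes past the threshold was also 0 with RLE, no filter, the stricter filter, DESeq2, a replicate block and a threshold of 0.1, and 2 with equal library sizes. It was 0 of 3 to 8 tested without 1 library too, but there 1 group has a single library, assumed to vary like the other group, so these fits say little about stability. Over all features the count of 9 was 16 with RLE, 21 with no filter, 14 with the stricter filter (at least 20 counts in 2 libraries), 284 with equal library sizes, 19 at a threshold of 0.1, 6 with DESeq2 and 12 to 18 without 1 library. The numbers pair the libraries in name only (correlation of replicate differences between groups -0.06 over 896 features); with a replicate block 4 features and 0 Zfp genes passed, and the Zfp median was -0.19. That median was -0.54 with no filter and -0.51 with DESeq2, where 13 Zfp genes were fitted, -1.002 with equal library sizes, and -0.30 to -0.05 without 1 library. Zfp329 turned to 0.026 with RLE, 0.086 with no filter and 0.14 with DESeq2 (-0.39 to 0.35 without 1 library). Zfp605 turned to 0.030 with no filter and 0.092 with DESeq2 (-0.17 to 0.085 without 1 library), and Zfp91 to -0.75 with equal library sizes. The median share kept was 37.5% to 44.4% without 1 library, 53.5% in the 3 Zfp genes with at least 20 counts in both shGFP libraries, and 51.9% as a sum. Non-overlapping Zfp genes numbered 5 of 13 under either scaling of library size, beside 35% (TMM) and 33.9% (CPM) of named features. Why values moved between settings was not tested. The count of 0 clusters was the same with gaps of 250000 and 1000000 bases.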
